A study of Mus musculus with 3 samples.

Results

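The Hippo pathway genes examined here were Yap1, Wwtr1, Tead1, Tead2, Tead3, Tead4, Lats1, Lats2, Stk3 and Amotl2, measured in sorted embryonic mouse mammary cells. They were chosen by gene symbol, with no threshold on their values though with earlier results of these data known, as the probe sets annotated with exactly 1 of these 10 symbols. Of the 10 genes 9 had such a probe set, 18 probe sets in all out of the 28898 that named 1 gene, and these belonged to 9 of the 17097 genes measured. Stk3, which encodes the kinase Mst2, had none and was not analysed here.

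RNA was profiled on 3 Affymetrix arrays of 1 group, with no control group. The cells came from female mouse embryos at embryonic day 14 that carried green fluorescent protein behind an internal ribosome entry site at the Lgr5 locus (Lgr5-IRES-GFP), and were sorted for CD49f, a surface integrin chain (alpha 6) of basal epithelium, at a high level and for high Lgr5 reporter signal. The labels call the samples biological replicates and pools of the female embryos of 1 litter, which leaves unsaid whether each array had a litter of its own. Epidermis and mammary gland were digested, and the RNA of either 813 or 2000 sorted cells was amplified over 25 cycles. The labels do not say which array had which number of cells. All cells carried the reporter allele, and the labels name no strain.

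In the Hippo pathway, the kinases Mst1 and Mst2 with the adaptor Sav1 activate the kinases Lats1 and Lats2, which work with Mob1 proteins. Lats kinases phosphorylate the coactivators Yap, from Yap1, and Taz, from Wwtr1, which are then held in the cytoplasm or degraded. Unphosphorylated Yap and Taz enter the nucleus and bind Tead factors, which supply the DNA contact, since neither coactivator binds DNA alone. The control acts largely on protein phosphorylation and location, which RNA levels do not measure. In the mammary gland, Yap and Taz are known for roles in basal cell identity and progenitor cell behaviour.

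A gene was called above background when its log2 values lay above a threshold measured on the same array, the 95th percentile of 78 olfactory and vomeronasal receptor genes, which these cells are not thought to use. The threshold stood at 6.29, 6.23 and 6.22 in replicates 1, 2 and 3. The mean distance of a gene from it was tested with limma (one-sided, Benjamini-Hochberg adjusted p under 0.05). Probe sets are given by the number in their manufacturer ID. A gene was represented by its probe set with the highest mean, which favours detection of genes with several probe sets. Of all 17097 genes 8972 (52.5%) passed, against 9258 at an unadjusted p under 0.05. Distances from the threshold were not compared between probe sets as amounts of RNA, since probe sets differ in their response.

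The arrays were not equally alike. Replicates 1 and 2 correlated at 0.994 over all probe sets with a median absolute difference of 0.098 on the log2 scale, while replicate 3 differed from replicate 1 by 0.387 and from replicate 2 by 0.385. Replicate 3 also had a higher median log2 value, 6.52 against 6.25 on both others. Replicates 1 and 2 had identical values at 43 probe sets, against 0 for either with replicate 3. Whether replicates 1 and 2 are independent samples was not tested, and SDs and p-values over 3 arrays count them as such. Litter, number of cells and processing cannot be told apart, so the Hippo genes are given by array. For the genes named below, tests without replicate 3, and with replicates 1 and 2 averaged and counted as 1 array, are given where they change a call. With 3 arrays, their number limited the precision.

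The labelled cell type was set against its defining markers. All 7 basal epithelial markers were above background, among them the keratin genes Krt5 (12.15 ± 0.16, SD, n = 3) and Krt14 (11.38 ± 0.25) and the p63 gene Trp63 (10.53 ± 0.39), and so were Cdh3 (9.52 ± 0.07), Itgb4 (9.79 ± 0.19) and Epcam (10.31 ± 0.40). The sort genes Lgr5 (10.27 ± 0.44) and Itga6 (10.37 ± 0.40) were above background too. Genes of dermal mesenchyme were also above background, 11 of 13, with Col1a1 at 12.99 ± 0.15 and Col1a2 at 7.99 ± 0.09, whereas Pdgfra (4.89 ± 0.55) and Tcf21 (4.95 ± 0.21) were not. Hippo genes are used by epithelium and mesenchyme alike, so the signals below cannot be assigned to 1 cell type, and in pooled cells fewer cells of a type and less RNA per cell cannot be told apart.

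Of the 9 measured Hippo genes 8 were above background on all 3 arrays, against 52.5% of all genes, with a median of 2.91 above the threshold on the log2 scale, against 0.63 over all genes. These were Yap1, Wwtr1, Tead1, Tead2, Tead3, Lats1, Lats2 and Amotl2. Tead4 was the exception. Counted by probe set, 13 of 18 were above background, against 46.8% of all 28898 probe sets that named 1 gene.

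**Figure D1:**
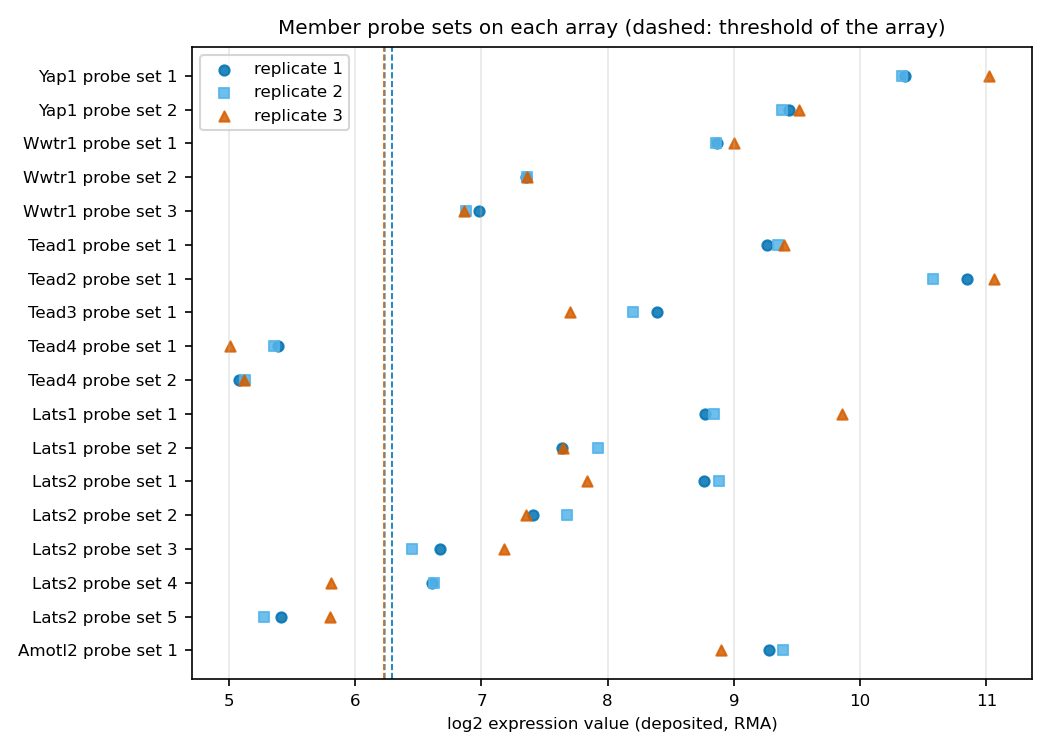
Deposited log2 value of each of the 18 probe sets of the Hippo genes in replicates 1, 2 and 3, numbered within a gene from the highest mean down; the dashed lines are the threshold of each array (6.29, 6.23 and 6.22). Both Tead4 probe sets lie left of all thresholds on all 3 arrays, the 5 Lats2 probe sets spread over both sides, and the probe sets of Yap1, Wwtr1 and Lats1 lie on the right.

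Both coactivator genes were detected by all of their probe sets. For Yap1, the brighter probe set (number 1448363) gave log2 signals of 10.36, 10.33 and 11.02 in replicates 1, 2 and 3, which averaged 4.32 above the threshold (SE 0.19, limma adjusted p = 5.28e-05). The other (1416487) had 9.44, 9.38 and 9.52, which averaged 3.20 above it (SE 0.13, adjusted p = 4.27e-05). Replicate 3 was thus the highest by both, but by very different amounts, 0.67 and 0.11 over the mean of replicates 1 and 2.

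Wwtr1, the Taz gene, was on the deposited scale the steadiest of the Hippo genes with more than 1 detected probe set. Its 3 probe sets gave log2 signals of 8.87, 8.86 and 9.00, of 7.35, 7.36 and 7.36, and of 6.98, 6.88 and 6.86 in replicates 1, 2 and 3. As deposited, all arrays lay close together, with an SD of at most 0.08, against a median SD of 0.26 over the 8972 genes above background. This depends on the scale. Replicate 3 minus the mean of replicates 1 and 2 was -0.29, -0.34 and -0.37 after quantile normalization. It was -0.13, -0.26 and -0.34 after centring each array on its median. The probe sets stood 2.66, 1.11 and 0.66 above the threshold, with limma adjusted p of 7.59e-05, 0.00113 and 0.00648. The dimmest lost its call without replicate 1, without replicate 2, with replicates 1 and 2 averaged and under each of the 3 higher thresholds, and the middle one under the highest 2.

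Of the Tead genes, which encode the DNA-binding partners, 3 of 4 were above background, against 52.5% of all genes. Tead2, known for its expression in the early embryo, gave log2 signals of 10.85, 10.58 and 11.06 in replicates 1, 2 and 3, an average of 4.58 above the threshold (95% interval 4.22 to 4.93, limma adjusted p = 2.38e-05 over probe sets). Tead1, known for its part in heart development, had 9.26, 9.35 and 9.40, an average of 3.08 above it (2.74 to 3.42, adjusted p = 4.93e-05). The values of both genes lay far over the threshold on every array, and those of Tead1 hardly differed on the deposited scale.

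Tead3 gave log2 signals of 8.39, 8.20 and 7.70 in replicates 1, 2 and 3, an average of 1.85 above the threshold (95% interval 1.36 to 2.33, adjusted p = 0.000559). It was lowest on replicate 3, where it was still over the threshold. Tead4, known for specifying the trophectoderm of the blastocyst, had 5.39, 5.36 and 5.01 by one probe set and 5.08, 5.13 and 5.12 by the other. These averaged 1.00 and 1.14 below the threshold, with 95% intervals of -1.32 to -0.67 and -1.40 to -0.87 (adjusted p = 1 for both). Tead4 thus stayed under the threshold on every array, which does not show that its RNA was absent. Since the 4 Tead genes are read by different probe sets, their log2 values do not rank their RNA.

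Both Lats kinase genes were above background, and the probe sets of each disagreed. Lats1 gave log2 signals of 8.77, 8.84 and 9.86 in replicates 1, 2 and 3 by its brighter probe set (1435739), an average of 2.91 above the threshold (SE 0.27, adjusted p = 0.000455). By the other (1427679) it had 7.64, 7.92 and 7.65, an average of 1.49 above it (SE 0.15, adjusted p = 0.000603). The first was 1.05 higher on replicate 3 than on the mean of replicates 1 and 2, and the second did not share that difference, with a value of -0.13.

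Lats2 was read by 5 probe sets, of which 2 were above background, against 46.8% of all probe sets that named 1 gene. The brightest (1419679) gave log2 signals of 8.76, 8.88 and 7.84 in replicates 1, 2 and 3, an average of 2.24 above the threshold (SE 0.25, adjusted p = 0.000816), and the next (1437101) had 7.41, 7.68 and 7.35 (adjusted p = 0.00119). Another (1425420), whose name marks possible matches to other transcripts, had 6.67, 6.45 and 7.18 and missed the call (adjusted p = 0.0539). Each of its values was over the threshold, and it was called without replicate 3, with the 90th percentile as threshold, after quantile normalization and without a variance trend. Yet another (1419678) had 6.61, 6.62 and 5.81 (adjusted p = 0.606) and was called without replicate 3, and the dimmest (1426156) stood below the threshold on all arrays, at 5.41, 5.28 and 5.80. Between the probe sets of Lats2 the mean log2 values ran from 5.50 to 8.49, so the call of a probe set depends on which of them is read. The gene was called in all 13 alternatives, the mean of its 5 probe sets among them.

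Amotl2 encodes an angiomotin family protein that binds Yap and keeps it out of the nucleus, and the gene is itself a known target of Yap. Its only probe set gave log2 signals of 9.28, 9.39 and 8.90 in replicates 1, 2 and 3, an average of 2.94 above the threshold (95% interval 2.53 to 3.35, adjusted p = 8.56e-05). It was lowest on replicate 3, as were Tead3 and the brightest Lats2 probe set.

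The count of 8 of 9 genes above background held under all 13 alternative settings, which varied thresholds, normalizations, probe set choices and omission of each array. Centring each array on its median is among them and moves values and threshold alike, so it could not change a call. Tead3 and Lats2 came closest to losing the call, with adjusted p of at most 0.0284 and 0.0175. The strictest threshold, the brightest of 23 antigenomic control probe sets, left 31.6% of all genes above background, and the loosest, the 90th percentile of the receptor genes, 60.9%. The same 8 Hippo genes were above background under both.

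Most of the remaining kinase cassette was detected as well. Of 12 other core kinases, adaptors and related kinases 10 were above background, against 52.5% of all genes, with a median of 1.70 above the threshold. The count was 7 of 12 with tissue-restricted genes as background, against 33.9% of all genes, where Stk4, Mink1 and Tnik lost their calls. It was 6 of 12 with the antigenomic control, against 31.6% of all genes, where Stk38 lost its call too. Stk4, the gene of Mst1 and thus the paralog of the unmeasured Stk3, gave log2 signals of 7.57, 7.59 and 8.66 in replicates 1, 2 and 3 (limma adjusted p = 0.00235). Its adjusted p was 0.0552 with tissue-restricted genes and 0.101 with the antigenomic control. The adaptor genes Sav1 (8.51 ± 0.12, SD, n = 3) and Mob1a (9.42 ± 0.19) were above background, while Mob1b, the close relative of Mob1a, had 4.77, 4.79 and 5.68 and was not. The other Sav1 probe set (1448204) had 5.59, 5.50 and 5.92 in replicates 1, 2 and 3 and was not above background.

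Kinase genes that act beside or upstream of Lats were detected as well. Taok1 (8.42 ± 0.31, SD, n = 3) and Taok2 (7.96 ± 0.27), whose products activate Mst kinases, were above background, as was Map4k4 (8.06 ± 0.36), whose product can phosphorylate Lats in parallel to Mst. Stk38 (7.93 ± 0.55) and Stk38l (8.53 ± 0.77), which encode the Lats relatives Ndr1 and Ndr2, were above background. The remaining probe sets of both genes were not, and both calls were lost when probe sets were averaged (adjusted p = 0.0648 for Stk38 and 0.264 for Stk38l). Taok3 had 6.32, 6.54 and 7.11 in replicates 1, 2 and 3 and was not above background (limma adjusted p = 0.096). Its values were over the threshold on each array, and it was called with the 90th percentile as threshold. It was also called when probe sets of a gene were averaged. Taok3 has only 1 probe set, but the threshold then fell to 6.09 and 6.10 in replicates 1 and 2.

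Upstream regulators were above background without exception among those measured, 15 of 15, against 52.5% of all genes, with a median of 2.58 above the threshold. The count was 12 of 15 with tissue-restricted genes as background, against 33.9% of all genes, where Scrib, Lix1l and Mark3 lost their calls. It was 11 of 15 with the antigenomic control, against 31.6% of all genes, where Wwc2 lost its call too. Lix1l also lost its call with the 99th percentile of the receptor genes. A further 5 listed genes were not analysed here. Nf2, the gene of the membrane scaffold Merlin that brings Lats to the cell cortex, stood at 9.14 ± 0.06 (SD, n = 3), and Wwc1, the gene of its partner Kibra, at 8.83 ± 0.15. Frmd6, which encodes a FERM domain protein related to Drosophila Expanded, stood at 8.44 ± 0.13, and the cadherin gene Fat1 at 11.45 ± 0.34. Wwc2, a paralog of Wwc1, stood at 7.75 ± 0.16 and lost its call with the mean of its 5 probe sets and with the antigenomic control.

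The angiomotin paralogs of Amotl2 were both detected. Amot gave log2 signals of 9.33, 9.49 and 9.14 in replicates 1, 2 and 3, and Amotl1 had 10.19, 10.44 and 10.86. All 3 angiomotin genes were thus above background, with Amot and Amotl2 lowest on replicate 3 and Amotl1 highest there by the brightest probe set of each. Ptpn14, whose product binds Yap and whose gene is also on the target list, had 8.98, 9.57 and 8.90.

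Of 5 Tead cofactor genes other than Yap1 and Wwtr1 4 were above background, against 52.5% of all genes. With tissue-restricted genes as background or with the antigenomic control it was 2 of 5, against 33.9% and 31.6% of all genes. Vgll1 and Vgll3 lost their calls under both. Vgll4, whose product competes with Yap for Tead, gave log2 signals of 9.07, 9.17 and 9.55 in replicates 1, 2 and 3, and Irf2bp2, whose product partners Vgll4, had 10.57, 10.69 and 11.34. Vgll1 and Vgll3 were less certain. Vgll1 (6.56 ± 0.03, SD, n = 3, limma adjusted p = 0.0472) lost its call in 6 of 13 alternatives, among them the one with replicates 1 and 2 averaged, and Vgll3 (7.22 ± 0.23, adjusted p = 0.00241) in 4 of 13, being above background by 1 of its 3 probe sets. Vgll2, known for muscle, had 5.11, 5.19 and 5.48 and was not above background.

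**Figure D2:**
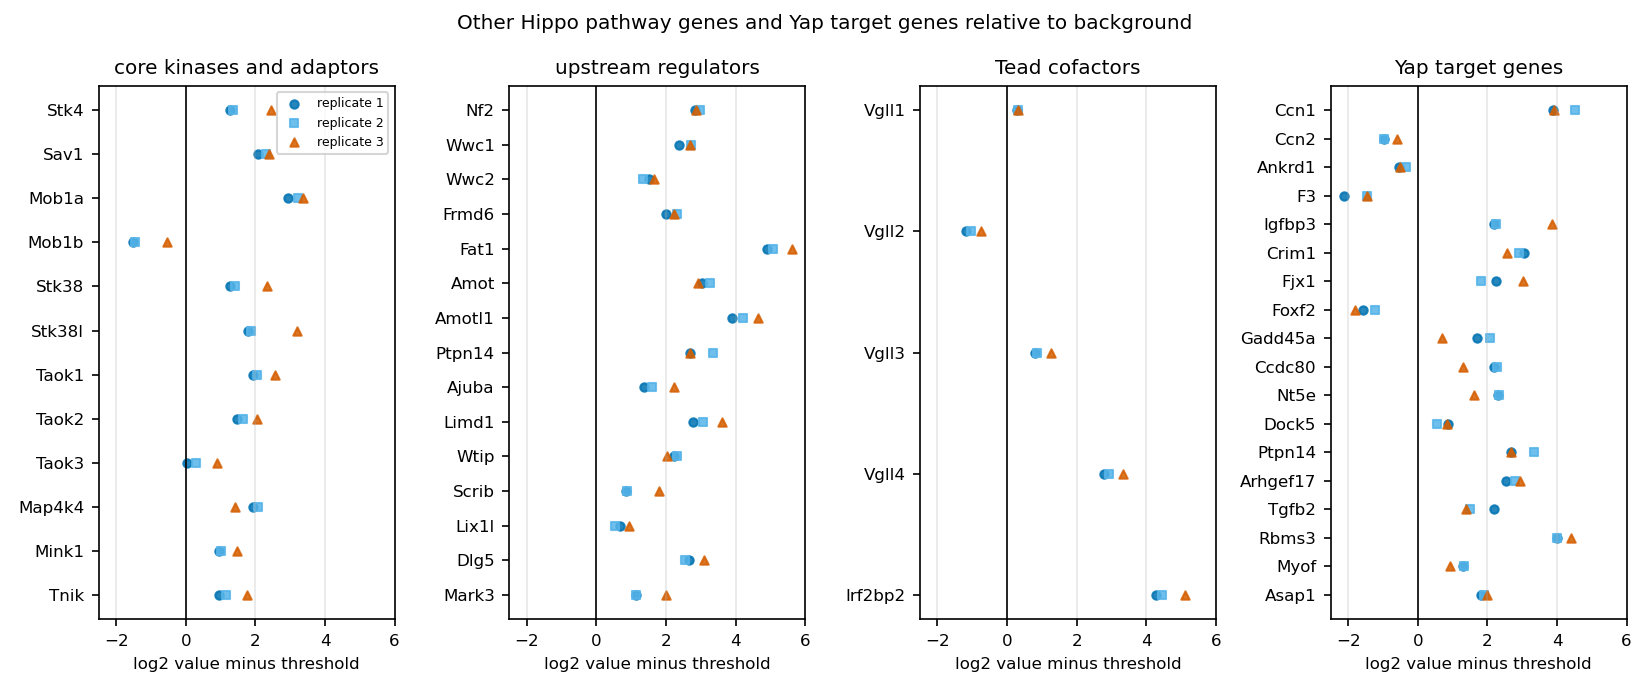
Log2 value minus the threshold of the array for the measured genes of 4 lists (other core kinases and adaptors, upstream regulators, Tead cofactors and Yap target genes) in replicates 1, 2 and 3; the vertical line at 0 is the threshold. All 15 upstream regulators lie right of the line, while Mob1b, Vgll2, Ccn2, Ankrd1, F3 and Foxf2 lie left of it on every array.

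Yap target genes, most of which were named in human cell lines, were above background in 14 of 18 measured cases once Amotl2 and Lats2 were left out, against 52.5% of all genes, with a median of 1.91 above the threshold. Of 3 genes commonly read as Yap output, 1 was above background. Ccn1, the gene of the matricellular protein Cyr61, gave log2 signals of 10.18, 10.75 and 10.15 in replicates 1, 2 and 3 (limma adjusted p = 2.40e-05). Ccn2, the gene of connective tissue growth factor, had 5.33, 5.27 and 5.64 by its only probe set, an average of 0.84 below the threshold. Ankrd1, the gene of a muscle ankyrin repeat protein, had 5.74, 5.91 and 5.72 by the brighter of 2 probe sets, an average of 0.46 below it. Ccn2 and Ankrd1 thus stayed under the threshold on every array, which does not show that their RNA was absent. Ccn1 was over the threshold on all arrays.

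The other targets ranged widely. Crim1 (9.09 ± 0.27, SD, n = 3), whose product binds bone morphogenetic proteins, and Fjx1 (8.62 ± 0.60), a relative of Drosophila four-jointed, were above background. Igfbp3, the gene of a binding protein of insulin-like growth factors, had 8.49, 8.49 and 10.07 in replicates 1, 2 and 3, and Gadd45a, a stress-induced gene, had 7.98, 8.32 and 6.92. Both were called, though replicate 3 stood apart in opposite directions. Ccdc80 (8.17 ± 0.55), a matrix protein gene, Nt5e (8.34 ± 0.42), the gene of the surface enzyme CD73, and Dock5 (7.15, 6.79 and 7.05) were above background, Dock5 by 1 of its 3 probe sets. The calls of Gadd45a and Dock5 were lost with tissue-restricted genes as background, and those of Gadd45a, Ccdc80 and Dock5 with the antigenomic control. Dock5 was not called either when the threshold was the 99th percentile of the receptor genes (adjusted p = 0.0573) or when its probe sets were averaged. The count of target genes was 9 of 18 with the antigenomic control, against 31.6% of all genes. F3, the tissue factor gene, had 4.18, 4.79 and 4.76, and Foxf2, a mesenchymal forkhead gene, had 4.73, 5.01 and 4.41, neither above background.

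Promoter sequences are shown for 3 of these genes that hold a Tead motif. These are a target gene above background (Ccn1), a target gene not above it (Ankrd1) and a gene that is both regulator and target (Amotl2). They were chosen with the motif counts known. Lats2, also both regulator and target, and the targets F3 and Foxf2 had windows without the motif. The sequences are the 250 bases before the transcript start in RefSeq, build GRCm38.p6, written 5′ to 3′ on the gene's strand, and capitals mark the core of the Tead motif, GGAATG or its reverse complement CATTCC. They lie at chr3:145649986-145650235, minus strand for Ccn1, at chr19:36119845-36120094, minus strand for Ankrd1, and at chr9:102717554-102717803, plus strand for Amotl2.
Ccn1: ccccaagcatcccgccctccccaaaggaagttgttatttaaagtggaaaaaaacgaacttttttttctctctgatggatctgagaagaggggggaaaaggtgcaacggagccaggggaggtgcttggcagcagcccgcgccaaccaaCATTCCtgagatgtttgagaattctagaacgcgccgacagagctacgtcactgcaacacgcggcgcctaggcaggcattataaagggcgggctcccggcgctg
Ankrd1: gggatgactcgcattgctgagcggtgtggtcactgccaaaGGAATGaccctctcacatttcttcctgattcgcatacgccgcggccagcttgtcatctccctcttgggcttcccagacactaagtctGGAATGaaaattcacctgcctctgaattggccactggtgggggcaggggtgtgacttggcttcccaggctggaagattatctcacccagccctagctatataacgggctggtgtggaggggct
Amotl2: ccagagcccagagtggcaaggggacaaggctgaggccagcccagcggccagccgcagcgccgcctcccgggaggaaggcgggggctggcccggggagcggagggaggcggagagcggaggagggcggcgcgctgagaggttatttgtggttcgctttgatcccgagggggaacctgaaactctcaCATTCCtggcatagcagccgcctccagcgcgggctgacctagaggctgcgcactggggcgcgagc

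The motif began 103 bases before the start in Ccn1 and 65 bases before it in Amotl2. Ankrd1 held it at 210 and at 123 bases before the start. Of the 10 Hippo genes 7 matched a promoter in RefSeq, and 4 of them (Yap1, Wwtr1, Tead3 and Amotl2) held the motif in at least 1 window. Among the other target genes 13 of 20 matched, and 5 held it, of which Axl was not measured on the arrays. Over all 27025 RefSeq genes with a window, 14.4% held the motif on either strand. A match of these letters is a description and not evidence of binding, and no test was made of the difference in shares.

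Replicate 3 differed from replicates 1 and 2 gene by gene within the pathway. On the deposited scale, genes above background were higher on replicate 3 than on the mean of replicates 1 and 2 by a median of 0.26, and 68.3% of them were higher, so differences are best read against that shift. Of the 13 Hippo probe sets above background, 7 were higher on replicate 3 and 6 lower, against 69.8% of all probe sets above background that were higher. The brightest Lats2 probe set, with a difference of -0.98, was the only 1 of the 13 outside the central 90% of genes above background (-0.64 to 1.23), and 6 of the 13 lay inside the central 50%. By gene, 5 of the 8 were higher and 3 lower as deposited, 2 higher and 6 lower after quantile normalization of the arrays, and 3 higher and 5 lower after centring each array on its median. No test of the difference is possible, since replicate 3 is 1 array.

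The differences within genes did not all point one way. Relative to the shift of 0.26, the Lats1 probe sets stood at 0.79 and -0.39 on replicate 3, and the Yap1 probe sets at 0.42 and -0.15. The 5 Lats2 probe sets stood at -1.24, -0.45, 0.37, -1.06 and 0.21. The probe sets 1419679 and 1419678 were both well below the shift, whereas 1425420 and 1426156 were above it. Tead3, at -0.85, and Amotl2, at -0.69, have a single probe set each.

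Some of these directions depend on the scaling of the arrays. Lats2 by its brightest probe set, Tead3 and Amotl2 were lower on replicate 3 on the deposited scale (-0.98, -0.59 and -0.43), after quantile normalization (-1.38, -0.98 and -0.86) and after centring on the median (-1.26, -0.87 and -0.70). The brighter probe sets of Yap1 and Lats1 were higher on all 3 scales, by 0.67, 0.30 and 0.40 for Yap1 and by 1.05, 0.62 and 0.78 for Lats1. The small differences of Tead1 (0.09 as deposited, -0.35 after quantile normalization and -0.18 after centring), the brightest Wwtr1 probe set (0.14, -0.29 and -0.13), the dimmer Yap1 probe set (0.11, -0.33 and -0.16) and Tead2 (0.34, -0.01 and 0.07) changed sign with the scale.

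**Figure D3:**
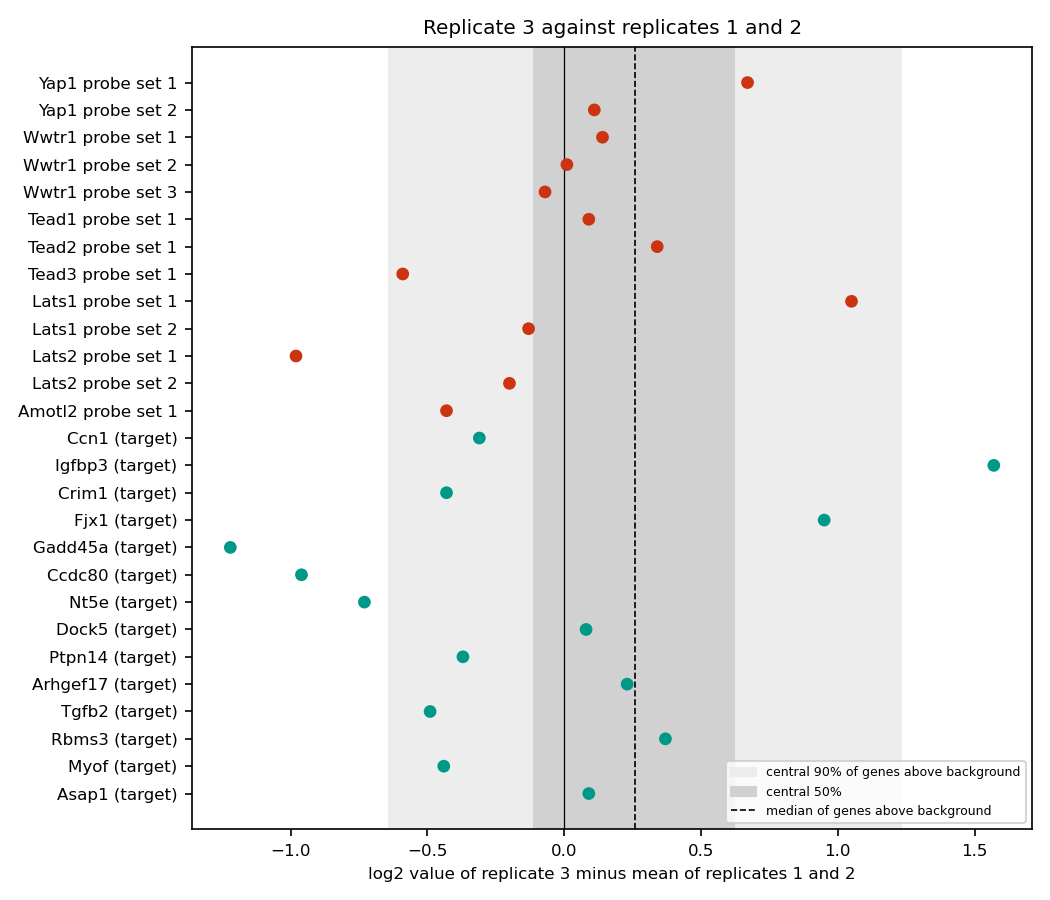
Log2 value of replicate 3 minus the mean of replicates 1 and 2 for the 13 Hippo probe sets above background (red) and the 14 Yap target genes above background (green); grey bands hold the central 50% and 90% of genes above background and the dashed line is their median (0.26). Lats2 probe set 1, Gadd45a, Ccdc80 and Nt5e lie left of the wide band and Igfbp3 lies right of it.

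The Yap target genes above background, Amotl2 and Lats2 left out, were lower on replicate 3 in 8 of 14 cases on the deposited scale, against 31.7% of all genes above background. After quantile normalization it was 12 of 14 against 59.6%, and after centring 11 of 14 against 51.1%. The lowest differences were those of Gadd45a (-1.22), Ccdc80 (-0.96) and Nt5e (-0.73), and the highest was that of Igfbp3 (1.57), each by the brightest probe set of the gene. The other Ccdc80 probe set above background (1424186) had a difference of -0.03, inside the central 50%. Ccn1 had a difference of -0.31 by its brighter probe set and of 0.35 by the other, so its direction is not settled. Of 13 tissue-restricted genes above background, which these cells are not thought to use, 9 were lower on replicate 3 as deposited. It was 11 of 13 after quantile normalization and 11 of 13 after centring. A high share of lower genes was thus not particular to the target genes.

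The core kinases, adaptors and related kinases other than Lats1 and Lats2 were mostly higher on replicate 3 on all 3 scales. Of the 10 above background, 9 were higher as deposited, against 68.3% of all genes, with a median difference of 0.50. After quantile normalization 7 were higher and 3 lower, against 59.6% of all genes that were lower, with a median difference of 0.10. After centring 7 were higher and 3 lower, against 51.1% that were lower, with a median difference of 0.23. Over all genes above background these medians were 0.26, -0.12 and -0.02. By the brightest probe set of each gene as deposited, Stk38l (1.33), Stk4 (1.08) and Stk38 (0.95) were the farthest up among these 10. Map4k4 (-0.62) was the gene that was lower as deposited. Other probe sets above background lay farther up, those of Taok1 at 1.64 and 1.71, of Mob1a at 1.39 and of Tnik at 1.36, against 0.54, 0.24 and 0.68 for the brightest probe set of Taok1, Mob1a and Tnik. The other Stk4 probe set, not above background, stood at -1.35. The upstream genes Nf2 (-0.08), Frmd6 (0.02) and Wwc1 (0.10) hardly differed on the deposited scale by their brightest probe sets, though another Nf2 probe set above background stood at 0.83.

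Most markers of dermal mesenchyme were lower on replicate 3 too. Of the 11 that were above background 9 were lower on the deposited scale, against 31.7% of all genes above background, with a median difference of -0.20. It was 10 of 11 after quantile normalization, against 59.6% of all genes, and 10 of 11 after centring, against 51.1%. The linear signal summed over the 13 measured genes was 28442 on replicate 3, against 34014 and 31381 on replicates 1 and 2. The summed signal of the 7 basal markers was 14691 on replicate 3, against 10894 and 13601 on replicates 1 and 2. Of these 7 markers 1 was lower on replicate 3 on the deposited scale (median difference 0.24), but 4 were lower after quantile normalization (-0.08) and 4 after centring (-0.03), so the direction of the basal markers depends on the scale. Their part in the differences of Lats2, Tead3, Amotl2 and the target genes was not tested.

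Markers of other cell types were above background at shares of 20.0% to 37.5%, below the 52.5% of all genes. Among 40 tissue-restricted genes of organs such as testis, pancreas and pituitary, which these cells are not thought to use, 13 (32.5%) passed the same threshold, with Prm1 at 8.02 ± 0.08 (SD, n = 3) and Gad2 at 7.66 ± 0.46, so a call of this kind can be made for a gene not thought to be used. Endothelial genes were above background in 3 of 10 cases, among them Pecam1 (7.63 ± 1.01, SD, n = 3) and Egfl7 (7.29 ± 0.40), with Cdh5 (5.81 ± 0.27) and Kdr (6.35 ± 0.35) not above it. Leukocyte genes reached 2 of 10, Cd68 (8.83 ± 0.26) and Fcer1g (7.29 ± 0.45), without Ptprc (4.03 ± 0.20) and Csf1r (6.47 ± 0.14). Csf1r was over the threshold on all 3 arrays, and was called without replicate 3 (limma adjusted p = 0.0076) and with the 90th percentile as threshold (0.00375). The shares were 2 of 7 for melanocytes, 3 of 8 for skeletal muscle, 3 of 10 for suprabasal epidermis and periderm and 2 of 6 for erythroid cells. With replicates 1 and 2 averaged, the muscle gene Tnnc2 (limma adjusted p = 0.0939) and the erythroid gene Epor (0.165) lost their calls. The sums that follow are on the deposited scale, on which replicate 3 had the higher median. The muscle sum was 530 on replicate 3, against 857 and 1004 on replicates 1 and 2, and the erythroid sum 414 against 703 and 749. The endothelial sum was 785 against 958 and 933, and the leukocyte sum 1062 against 1165 and 1072. The melanocyte sum was 748 against 600 and 635, though 1 of the 2 melanocyte genes above background was lower after quantile normalization. The suprabasal and periderm sum was 1932 against 1872 and 1959. That last sum held keratin genes that differed in opposite directions. Krt4 had log2 signals of 5.50 on replicate 3, against 8.96 and 8.26 on replicates 1 and 2, and Krt10 had 9.18 against 6.94 and 7.70. Krt4 was not above background over all arrays, but was called without replicate 3 (limma adjusted p = 3.38e-06) and with replicates 1 and 2 averaged (0.0173). The erythroid genes Klf1, Epor and Alas2 differed by -1.4, -0.52 and -0.93 on replicate 3 from the mean of replicates 1 and 2. Hba-x, Hbb-y and Hbb-bh1, under the threshold on every array, differed by 0.01, 0.33 and 0.38. Among the muscle genes Actc1, not above background, differed most (-2.73), and only Myf5 was higher (0.22). The part of these other cell types in the Hippo values was not tested.

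**Figure D4:**
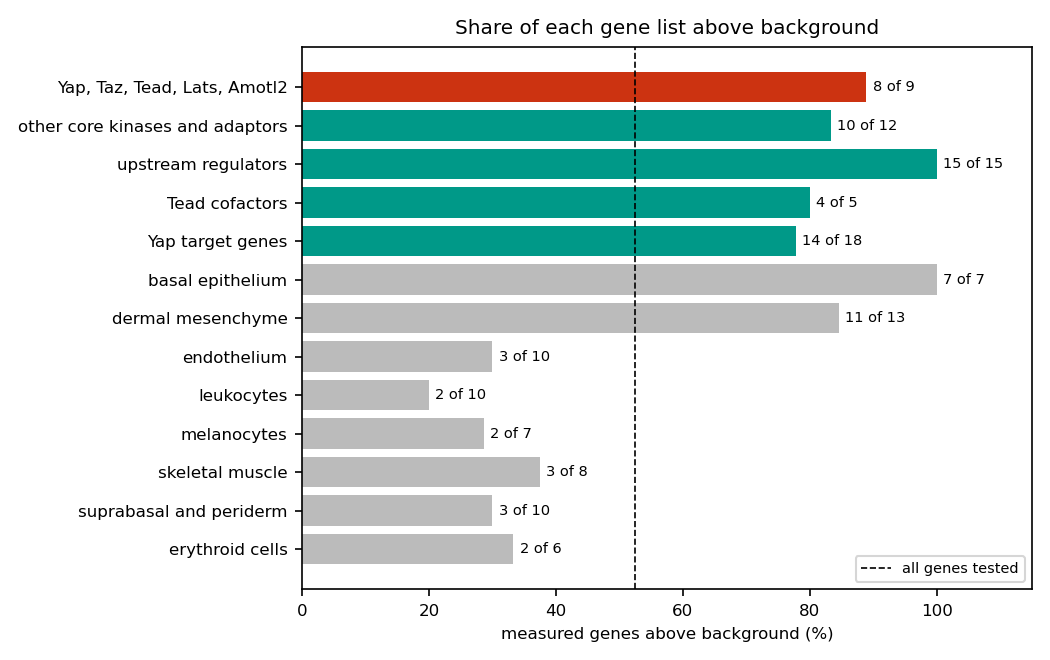
Percentage of the measured genes of each list that were above background, with counts at the bar ends and all genes tested (52.5%) as the dashed line; red is the Hippo genes, green the other pathway and target lists and grey the cell type markers. The 5 Hippo lists, basal epithelium and dermal mesenchyme lie right of the line, and the other 6 cell type lists lie left of it.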

How the data were processed

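RNA from 3 pools of sorted cells was measured on Affymetrix arrays with perfect match probe sets. The authors deposited 1 log2 value per probe set and array, and RMA and the affy package are named per the submitters' processing notes, without versions or settings. RMA corrects background, normalizes and summarises probes, which compresses weak signals. Whether the arrays were normalized together is not given in the sources used here, and replicate 3 had another distribution. That the scale is log2 was read from the values.

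The table held 45141 probe sets, 104 of them manufacturer controls. The platform annotation paired 28898 with 1 gene and 551 with several, and the latter and unannotated ones were dropped. The distance of each gene from the array threshold was fitted with limma 3.58.1 in R 4.3.3 (intercept, empirical Bayes with trend) and adjusted over 17097 genes, or over 28898 probe sets for values given by probe set. The p-values leave out the error of the threshold. The labels call the samples biological replicates. The steps were tested on simulated data.

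The Hippo genes, lists and tests were chosen with earlier results of these data known. The rule for named genes took all Hippo genes, basal markers and sort genes, then in list order up to 8 genes above background and up to 4 others of each pathway list, and 2 of each kind per cell type list. No genes of like pattern were sought, since 3 arrays of 1 group give no measure of likeness. Python 3.11.15 with numpy 2.4.6, pandas 2.3.3 and matplotlib 3.10.9 was used besides. Promoters are those of RefSeq, GRCm38.p6.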

Additional observations from a re-analysis of the deposited data

How the results depend on the processing

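The count of 8 Hippo genes above background was the same in 13 of 13 alternatives, and the 18 Hippo probe sets gave 9 to 15 calls. Of 49 other pathway and target genes 42 passed, against 52.5% of all genes, and 27 when the brightest antigenomic control set the threshold, against 31.6%. Under that threshold other core kinases and adaptors gave 6 calls in place of 10, and upstream regulators 11 in place of 15. Tead cofactors gave 2 in place of 4 and Yap target genes 9 in place of 14. Tissue-restricted genes as background left 2 of 5 Tead cofactors, against 33.9% of all genes. Leaving out 1 replicate in turn gave 41 to 42 calls among the 49, 3 to 4 among the Tead cofactors and 12 to 15 among the Hippo probe sets. Both fits of probe sets without replicate 1 or 2 lost the dimmest Wwtr1 probe set, and averaging replicates 1 and 2, chosen after seeing the data, lost it and Vgll1. The median difference of the Hippo genes in replicates 1, 2 and 3 was 0.03, 0.02 and 0.09 as deposited. It was 0.18, 0.23 and -0.35 after quantile normalization, 0.17, 0.16 and -0.18 after centring, and 0.03 on replicate 3 with the mean of probe sets. Centring moves values and threshold alike, so by construction it cannot change a call. Over 80 named genes and 13 alternatives, 976 of 1040 calls were the same, 35 were lost, 11 were gained and 18 changed sign. The last were, as distances from the threshold, with the 99th percentile Vgll1 (-0.06), and with tissue-restricted genes Vgll1 (-0.65), Dock5 (-0.21), Myod1 (-0.13), Tnnc2 (-0.39), Epor (-0.44), and with the antigenomic control Vgll1 (-0.83), Vgll3 (-0.16), Dock5 (-0.39), Egfl7 (-0.09), Fcer1g (-0.09), Pmel (-0.05), Myod1 (-0.31), Tnnc2 (-0.57), Epor (-0.62), and with the mean of probe sets Vgll3 (-0.30), Dock5 (-0.25), and without cross-hybridising probe sets Vgll3 (-0.40). Each setting raised the threshold or read dimmer probe sets. No paired analysis was possible because there is 1 group. Signal near the threshold, as for Vgll1, limits what can be called.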
